A study of Homo sapiens with 4 samples.

Results

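The 10 genes described here are adhesion and homing genes: the mucosal addressin *MADCAM1*, the junction protein gene *ESAM*, the integrin subunit genes *ITGA4*, *ITGA5*, *ITGA6*, *ITGAL*, *ITGB1* and *ITGB2*, the chemokine receptor gene *CXCR4* and the hyaluronan receptor gene *CD44*. They are 10 of the 17721 genes that a transcript accession names on the arrays. They were chosen by measured values of these same arrays, the log2 ratios to wild-type cells in which *MADCAM1* stood out, and are measured by 15 probes. Their values are therefore given as a description, with no test.

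Total RNA of Nalm-6 cells, an established human pre-B cell line grown without oxidative stress, was hybridized to single-color Agilent arrays. There was 1 array each for wild-type cells (WT), cells with the Arp5 locus disrupted through homologous recombination (Arp5 KO) and cells with the Arp8 locus disrupted in the same way (Arp8 KO). A further array, named here the overexpression-labelled array, carries the label Arp8 overexpression, and according to the design text its cells were Arp8 KO cells given a Tet-Off Arp8 construct. Arp5 and Arp8 are subunits of the INO80 chromatin remodeling complex, and the comparisons ask how gene expression differs when the locus of either is disrupted. The labels do not give the number of clones behind each line. Each genotype has 1 array and so no replicate error, and the number of arrays limits the precision.

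Lymphocytes leave the blood and settle in tissues through a sequence of contacts in which selectins, chemokine receptors and integrins take part. Integrins are pairs of an alpha and a beta subunit that bind ligands on other cells or in the matrix once signals inside the cell have activated them. In the bone marrow, B cell precursors are held near stromal cells through the chemokine receptor CXCR4 and through integrins that contain the alpha 4 subunit, whereas MADCAM1 and ESAM are known best as proteins of endothelial cells.

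The quantity given as a signal is the scanner software's processed signal, an intensity in arbitrary units on a linear scale, with the background already subtracted. A level is the log2 signal minus the 75th percentile of its array, and a log2 ratio is the difference between the levels of 2 arrays. Each array held 43376 spots other than controls, for 41000 probes. The spots well above background numbered 31188 on the WT array, 31420 on the Arp5 KO array, 30394 on the Arp8 KO array and 30803 on the overexpression-labelled array. A probe was called beyond 2-fold when its brighter array was well above background and its log2 ratio passed 1 in size. Where the dimmer array was not well above background, it was set no lower than the dimmest signal well above background on that array, 7.76 units for WT, 6.90 for Arp5 KO, 9.44 for Arp8 KO and 8.87 for the overexpression-labelled array, and the ratio is then a lower bound on the difference. Below background here means not well above background, whatever the size of the signal. An error given after ± is the scanner software's own error of the signal. It does not include variation between cultures. For bright probes, such as those of *ITGA4* with 1 spot and *CXCR4* with 10, it was close to 10% of the signal. There it is not a spread measured between spots, and it is not made smaller for the mean of 10 spots.

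The labels were checked on the targeted genes. *ACTR5*, which encodes Arp5, had a signal of 1909 units on the WT array, 65.3 on the Arp5 KO array, 1849 on the Arp8 KO array and 2088 on the overexpression-labelled array. *ACTR8*, which encodes Arp8, read 1092 units for WT, 993 for Arp5 KO, 785 for Arp8 KO and 679 for the overexpression-labelled array on probe A_23_P80694, and 2149, 2233, 1654 and 1857 on A_24_P131697. These give log2 ratios to WT of -0.49 and -0.40 on its probes in Arp8 KO cells, and of -0.71 and -0.23 on the overexpression-labelled array. *ACTR5* was thus low only on the Arp5 KO array among the 4, while *ACTR8* was within 2-fold of WT on both arrays with an Arp8 label. Its signal does not by itself bear out either label, so both arrays are named by their labels throughout, and which part of the transcript the probes cover was not examined. The pre-B cell label was checked on 13 marker genes, and 13 of the 13 were well above background on every one of the 4 arrays. The brightest was *IGLL1*, a surrogate light chain gene, whose probe A_24_P83102 read 140475 units on the WT array.

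*MADCAM1* encodes the addressin on the venules of gut-associated tissue to which lymphocytes bind through the alpha 4 beta 7 integrin. It was lower on each of the other 3 arrays than on the WT array, on both of its probes. Probe A_23_P153616 had a signal of 99.3 ± 10.1 units on the WT array, 16.5 ± 2.33 on the Arp5 KO array, 15.4 ± 2.57 on the Arp8 KO array and 16.7 ± 2.46 on the overexpression-labelled array. Probe A_24_P10731 read 85.3 ± 8.74 units on the WT array, 50.01 ± 5.31 for Arp5 KO, 38.0 ± 4.41 for Arp8 KO and 45.3 ± 4.94 on the overexpression-labelled array. On both probes the WT array was the highest of the 4, and on the first probe the other 3 lay within the software error of one another.

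The log2 ratio to WT of probe A_23_P153616 was -2.57 for Arp5 KO, -2.71 for Arp8 KO and -2.59 for the overexpression-labelled array, with software errors of 0.25, 0.28 and 0.26 on the log2 scale. Probe A_24_P10731 gave -0.75, -1.19 and -0.94 in the same order, with errors of 0.21, 0.22 and 0.22, so that only its Arp8 KO ratio passed 2-fold. These 3 ratios share the WT array. The probes differed in the size of the ratio, by -1.82, -1.52 and -1.66 as the first probe minus the second, which is larger than the software error of either. Both are assigned to the same transcript, and which of its exons they cover was not examined. For repeated probes whose dimmer signal was under 50 units, with both arrays well above background, the median SD of the Arp5 KO to WT log2 ratio between spots was 0.22 over 19 probes. The size of the *MADCAM1* ratios changed under an alternative that altered the signal measure, background correction, offset and array scaling together. That scaling was quantile normalization, which gives the arrays the same distribution of values. Used alone, it gave probe A_23_P153616 log2 ratios of -2.64 for Arp5 KO and -2.64 for Arp8 KO over WT. Which of the other changes moved the ratios was not tested. With normexp correction of the median signal and an offset of 50, the ratios of probe A_23_P153616 were -1.08, -1.14 and -1.12, and those of probe A_24_P10731 were -0.42, -0.49 and -0.39.

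The ratios that leave out the WT array were smaller. Probe A_23_P153616 gave a log2 ratio of -0.11 for Arp8 KO over the overexpression-labelled array and 0.14 for Arp5 KO over Arp8 KO, with errors of 0.32 on each. Probe A_24_P10731 gave -0.25 with an error of 0.23, and 0.44 with an error of 0.23. *MADCAM1* therefore separated the WT array from the other 3 more than it separated those 3 from one another.

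**Figure D1:**
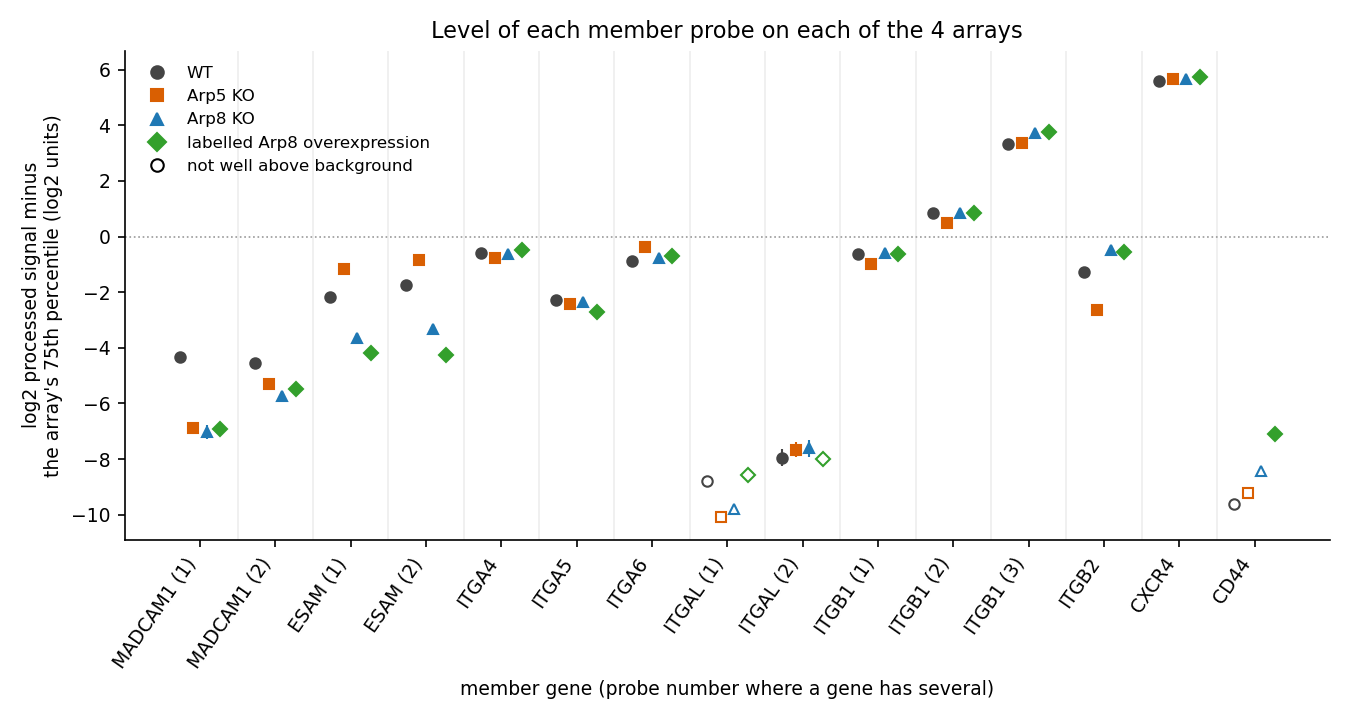
Level of the 15 probes of the 10 members on the 4 arrays, as log2 processed signal minus the 75th percentile of the array; bars are the scanner software's error and open symbols were not well above background. *MADCAM1* is highest on the WT array, *ESAM* on the Arp5 KO array, and *CXCR4* lies at 5.60 to 5.74 on each of the 4.

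The bases just upstream of the *MADCAM1* start are shown because both probes of the gene were lower on the same 3 arrays, together with those of *CXCR4*, a member whose level hardly differed between arrays. The sequences are RefSeq's, on build GRCh38.p14, and cover the 250 bases before the start, 5′ to 3′ on the strand of the gene: chr19:496236-496485 on the plus strand for *MADCAM1* and chr2:136118150-136118399 on the minus strand for the most upstream of the 3 *CXCR4* starts in the table. Capitals mark matches to CCCNNGGG, the letters bound by EBF1, a factor of early B cells.
MADCAM1: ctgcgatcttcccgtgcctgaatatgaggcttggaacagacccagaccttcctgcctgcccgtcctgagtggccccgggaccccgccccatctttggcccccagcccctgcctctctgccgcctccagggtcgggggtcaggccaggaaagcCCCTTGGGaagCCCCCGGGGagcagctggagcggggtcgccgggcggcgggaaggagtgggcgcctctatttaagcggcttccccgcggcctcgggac
CXCR4: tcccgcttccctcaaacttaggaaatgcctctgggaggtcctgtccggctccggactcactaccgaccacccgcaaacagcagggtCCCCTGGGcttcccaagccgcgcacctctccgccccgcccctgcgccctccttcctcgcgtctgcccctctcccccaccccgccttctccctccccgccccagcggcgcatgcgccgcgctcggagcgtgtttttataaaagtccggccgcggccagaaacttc
Of the 10 members, 7 had an entry in this table, and *ESAM*, *ITGB2* and *ITGAL* had none.

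The *MADCAM1* run had a GC content of 70.4% and the *CXCR4* run 68.0%, against a median of 58.0% over 35116 promoter windows of the same length. The 11 windows of the 7 members ranged from 41.6% to 78.4%. The *MADCAM1* run held 3 matches to CCCNNGGG, which begin 98, 87 and 86 bases before the start, the last 2 overlapping in the run of capitals nearest the start. Of all windows 17.1% had at least 1 such match and 0.957% had 3 or more. Each of the 3 also overlaps a match to the NF-kappaB letters, GGG and CC with 5 bases between them. The *CXCR4* run had 1 match, 164 bases before the start, which overlaps no such match. The windows of the other *CXCR4* starts and those of the other members held no match to CCCNNGGG.

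Another 6 motifs were searched on both strands, and matches were allowed to overlap. The ETS core GGAA had 7 matches in the *MADCAM1* run and 4 in the *CXCR4* run, and 92.7% of all windows had at least 1, with 7 or more in 4.1%. The NF-kappaB letters had 5 matches for *MADCAM1* and 0 for *CXCR4* (54.4% of windows), and the GC box GGGCGG had 2 and 3 (42.6% of windows). The E-box CANNTG had 1 and 0 matches (61.8% of windows), the TATA box TATAAA had 0 and 2 (10.7%), and the AP-1 motif TGANTCA had 0 in both (6.57%). Over the 11 windows of the members the NF-kappaB letters had 0 to 8 matches, the most in *ITGA5*, which had 6 to GGAA, and *CD44* had 4 and the other *CXCR4* windows 1 each. CCCNNGGG was chosen for marking after these counts were seen. A match describes the letters in the window and was not tested as a binding site.

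*ESAM* encodes an immunoglobulin-family adhesion protein of endothelial tight junctions and platelets. It was higher in Arp5 KO cells and lower in Arp8 KO cells than in WT cells. Probe A_23_P47410 read 437 ± 43.7 units on the WT array, 877 ± 87.7 on the Arp5 KO array, 162 ± 16.3 on the Arp8 KO array and 110.2 ± 11.2 on the overexpression-labelled array. Probe A_24_P13190 read 597 ± 59.7, 1101 ± 110.1, 202 ± 20.3 and 104.8 ± 10.6 units on the same arrays. The order of the arrays was the same on both probes, from Arp5 KO through WT and Arp8 KO down to the overexpression-labelled array, and neighbouring arrays differed by more than the software error.

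Arp5 KO over WT had a log2 ratio of 1.03 on probe A_23_P47410 and 0.91 on probe A_24_P13190, each with an error of 0.20, so that the 2-fold line fell between the probes. The first probe also fell short of it in the authors' own table, at 0.99, and with the normexp correction, at 0.93. The ratios of Arp8 KO to WT were -1.45 and -1.58, and those of the overexpression-labelled array to WT were -2.01 and -2.53. Between the KO lines, without the WT array, Arp5 KO over Arp8 KO gave a log2 ratio of 2.48 on one probe and 2.49 on the other, each with an error of 0.20. This 5.57-fold and 5.60-fold difference was the widest of the members between these lines. For Arp8 KO over the overexpression-labelled array the ratios were 0.56 and 0.95, so the overexpression-labelled array lay farther from WT than the Arp8 KO array did.

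**Figure D2:**
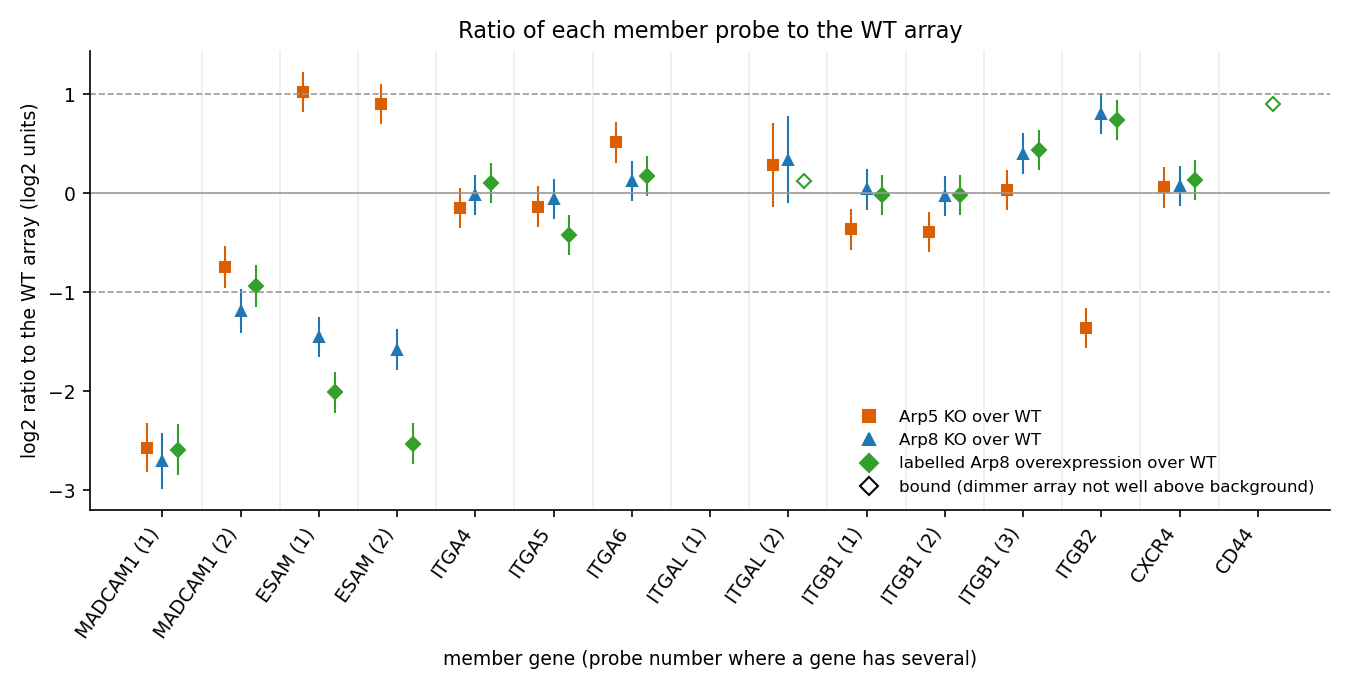
Log2 ratio of each member probe to the WT array, with the software error as bars, 2-fold as dashed lines and open symbols for bounds; all the ratios share the WT array, and *ITGAL* probe 1 has none because it was below background on the 4 arrays. *MADCAM1* lies below 0 for the 3 arrays, and *ESAM* and *ITGB2* lie on opposite sides of 0 for Arp5 KO and Arp8 KO.

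*ITGA4* encodes the alpha 4 subunit, which pairs with beta 1 to bind VCAM1 and with beta 7 to bind MADCAM1. Its signal was 1303 units on the WT array, 1155 on the Arp5 KO array, 1301 on the Arp8 KO array and 1426 on the overexpression-labelled array. The log2 ratios to WT were -0.15, -0.02 and 0.11, each smaller than the software error of 0.20. The partner subunit gene *ITGB7* read 249, 227, 253 and 353 units in the same order, and its ratio to WT was 0.48 on the overexpression-labelled array. Neither subunit of the MADCAM1 receptor was beyond 2-fold against WT on any of the other 3 arrays.

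*ITGA5* encodes the alpha subunit of the fibronectin receptor, and *ITGA6* the alpha subunit of laminin receptors. *ITGA5* read 403, 362, 392 and 306 units on the WT, Arp5 KO and Arp8 KO arrays and the overexpression-labelled array, which was the lowest at a log2 ratio to WT of -0.42. *ITGA6* read 1075, 1511, 1186 and 1231 units, with its highest signal on the Arp5 KO array, at a log2 ratio to WT of 0.51. Both differences are larger than the software error of 0.20 and smaller than 2-fold.

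*ITGAL* encodes the alpha subunit of LFA-1, the leukocyte integrin that binds intercellular adhesion molecules. Its probe A_23_P206806 was below background on the 4 arrays. Probe A_23_P54878 read 8.03 units on the WT array, 9.66 in Arp5 KO cells and 10.3 in Arp8 KO cells, and 7.95 units, not well above background, on the overexpression-labelled array. Its software error was between 19.2% and 24.5% of the signal, and the log2 ratios to WT, 0.29 for Arp5 KO and 0.34 for Arp8 KO, were within their errors of 0.42 and 0.44. No difference in *ITGAL* was detectable at this signal.

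*ITGB1* encodes the beta 1 subunit, the partner of alpha 4, alpha 5 and alpha 6, and is measured by 3 probes. Probe A_23_P104199 had 10 spots on each array, with mean signals of 1284 units for WT, 982 for Arp5 KO, 1335 for Arp8 KO and 1291 for the overexpression-labelled array. Its log2 ratio for Arp5 KO over WT was -0.36, with an SD of 0.04 between the 10 spot pairs. Probe A_23_P104193 gave -0.39 for this ratio, whereas the brightest, A_32_P95397, gave 0.04. The 3 probes lay closer together for Arp5 KO over Arp8 KO, at -0.40, -0.36 and -0.37, because A_32_P95397 was 0.40 above WT in Arp8 KO cells. *ITGB1* was thus lower in Arp5 KO than in Arp8 KO cells by less than 2-fold on each probe, and the probes differed on where the WT array lay. A_23_P104199 and A_23_P104193 are assigned to the same transcript and A_32_P95397 to another, and which exons they cover was not examined.

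*ITGB2* encodes the beta 2 subunit shared by the leukocyte integrins, and its probe also had 10 spots on each array. Its signal was 809 units on the WT array, with spots from 783 to 844, and 310.1 on the Arp5 KO array, with spots from 295 to 337. It was 1432 on the Arp8 KO array, with spots from 1357 to 1501, and 1377 on the overexpression-labelled array, with spots from 1274 to 1410. The spots of Arp5 KO lay below those of WT, and the spots of WT below those of the other 2 arrays, with no overlap, while the last 2 arrays overlapped.

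The log2 ratio of *ITGB2* to WT was -1.36 for Arp5 KO, 0.81 for Arp8 KO and 0.74 for the overexpression-labelled array, with SDs of 0.05, 0.04 and 0.04 between the 10 spot pairs. These spots are repeats on 1 array and not cultures. The ratio of Arp5 KO to Arp8 KO, which leaves out WT, was -2.17 with a spot SD of 0.03, a 4.49-fold lower signal. Arp8 KO and the overexpression-labelled array differed by 0.06 with a spot SD of 0.04. *ITGB2* and *ESAM* thus ran in opposite directions between the KO lines. The alpha partners of beta 2 other than *ITGAL* were dim. *ITGAM* read 38.4, 28.4, 74.8 and 55.2 units in the order WT, Arp5 KO, Arp8 KO and overexpression-labelled, with a log2 ratio of -1.36 for Arp5 KO over Arp8 KO. *ITGAX* was near or below background, and *ITGAD* was below background on the 4 arrays.

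*CXCR4* encodes the receptor for CXCL12, the chemokine that holds precursor B cells in the marrow. Its probe had 10 spots on each array and mean signals of 96294 units for WT, 98794 for Arp5 KO, 102612 for Arp8 KO and 107269 for the overexpression-labelled array. The log2 ratios to WT were 0.06, 0.07 and 0.13, with spot SDs of 0.04, 0.05 and 0.03. They are smaller than the software error of 0.20, which is not made smaller for the 10 spots. The WT spots, from 92630 to 99896 units, and those of the overexpression-labelled array, from 103370 to 110085, did not overlap. Relative to the 75th percentile of their arrays, the spots of both KO arrays overlapped each of these. *CXCR4* was bright on each of the 4 arrays, and no spot on any array was saturated.

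*CD44* encodes the main receptor for hyaluronan, a matrix polysaccharide. Its signal was 2.52 units on the WT array, 3.28 on the Arp5 KO array and 5.88 on the Arp8 KO array, none of them well above background, and 14.7 on the overexpression-labelled array. Of its 10 spots, 10 were well above background on the overexpression-labelled array, 1 on the Arp8 KO array and 0 on the other 2. The signal on the overexpression-labelled array was at least 1.87-fold higher than on the WT array. Its spots there ranged from 12.3 to 19.9 units, and those of the Arp8 KO array from 2.89 to 13.2, so the ranges of these 2 arrays overlapped.

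**Figure D3:**
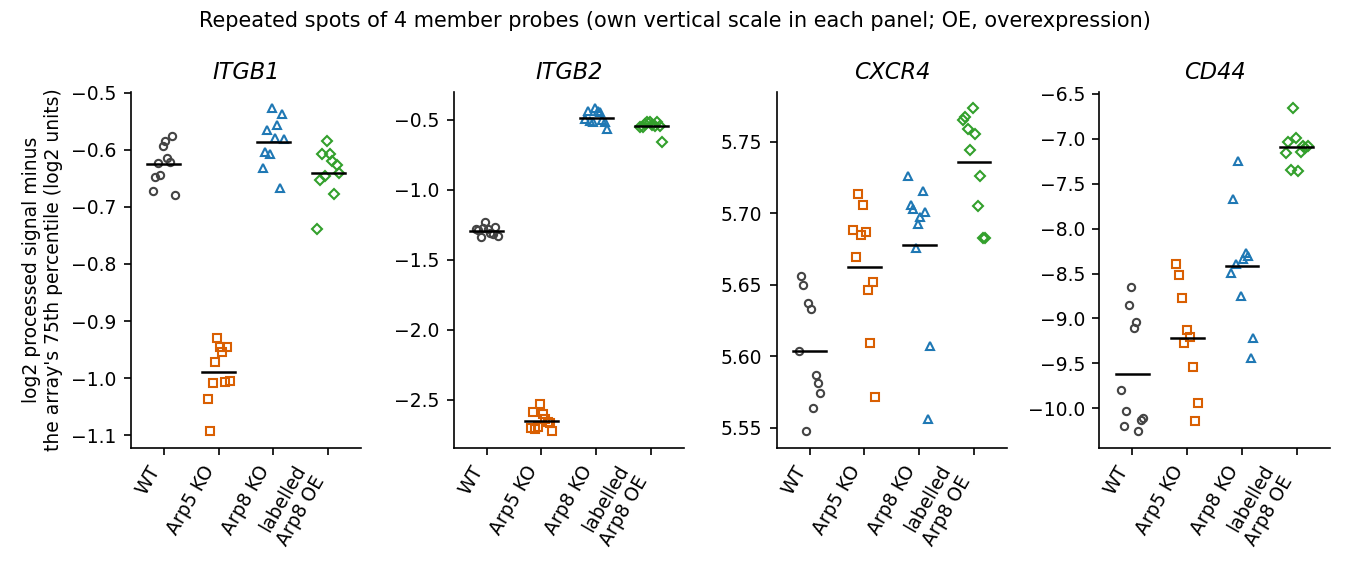
Level of each repeated spot of the *ITGB1* (probe A_23_P104199), *ITGB2*, *CXCR4* and *CD44* probes on the 4 arrays, in log2 units relative to the 75th percentile of the array, with lines at the means; spots are repeats on 1 array, not cultures. The Arp5 KO spots of *ITGB1* and *ITGB2* lie below those of the other arrays, the *CXCR4* spots of both KO arrays overlap those of the other 2, and *CD44* is well above background only on the overexpression-labelled array.

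Counted over probes, 13 of the 15 could be compared between Arp5 KO and WT, which measure 9 of the 10 genes. The rule that chose the members used these contrasts, so nothing is read from the counts. In Arp5 KO over WT, 1 was higher beyond 2-fold (*ESAM*) and 2 were lower (*MADCAM1* and *ITGB2*), where 1.17% of 29913 tested probes were higher and 1.14% lower. In Arp8 KO over WT, 0 of 13 were higher and 4 lower, both probes each of *MADCAM1* and *ESAM*, against 1.47% higher and 2.06% lower of 29570. On the overexpression-labelled array over WT, 0 of 14 were higher and 3 lower, 1 of *MADCAM1* and 2 of *ESAM*, against 1.48% higher and 2.76% lower of 29704.

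In the comparisons without WT, 0 of 14 member probes were beyond 2-fold for Arp8 KO over the overexpression-labelled array, where 0.936% of all tested probes were higher and 0.922% lower. For Arp5 KO over Arp8 KO, 2 of 13 were higher, both of *ESAM*, and 1 lower, that of *ITGB2*, where 1.79% were higher and 1.33% lower. The median log2 ratio of the compared member probes was -0.13 for Arp5 KO over WT, -0.02 for Arp8 KO over WT and 0.05 for the overexpression-labelled array over WT, beside 0.04, 0.01 and 0.01 over all tested probes. The compared probes of the integrin alpha subunits, *ITGB1* and *CXCR4* thus lay within 2-fold in the 5 comparisons, and those beyond 2-fold belonged to *MADCAM1*, *ESAM* and *ITGB2*.

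Other genes of adhesion and homing were examined from 6 lists with 102 genes and 153 probes, of which 73 genes were well above background on at least 1 array. In Arp5 KO over WT, 0 of 95 compared probes were higher beyond 2-fold and 3 were lower (3.16%). In Arp8 KO over WT, 1 of 94 was higher and 1 lower (1.06% each). On the overexpression-labelled array over WT, 4 of 97 were higher (4.12%) and 2 lower (2.06%). Under normexp correction of the median signal with an offset of 50 and quantile normalization, the probes beyond 2-fold numbered 1, 0 and 0 in the same order. With quantile normalization alone they numbered 4, 2 and 6. Which of the other changes moved the counts was not tested. Without any of these changes the medians of the log2 ratios were -0.12, 0.05 and 0.04. The shares of lower probes in Arp5 KO cells and of higher probes on the overexpression-labelled array were above those of all probes, 1.14% and 1.48%, and the others were below them. For Arp5 KO over Arp8 KO, 0 of 93 were higher and 5 lower (5.38%), where 1.79% and 1.33% of all probes were. The 5 were *ITGB4* at -1.50, *ITGAM* at -1.36, *ICAM5* at -1.31, *SPP1* at -1.14 and *JAM2* at -1.02. The other *ICAM5* probe was at -0.12. These differences in share were not tested.

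Among the 20 other integrin subunit genes, 13 were well above background on some array, and 1 was beyond 2-fold against WT. This was *ITGB4*, the laminin-binding partner of alpha 6, at 82.3 units for WT, 69.3 for Arp5 KO, 202 for Arp8 KO and 163 for the overexpression-labelled array, with a log2 ratio of 1.28 in Arp8 KO over WT. The brightest of this list was *ITGAE*, an alpha subunit that pairs with beta 7, at 5427, 5153, 5842 and 7250 units.

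Of the 23 integrin ligand genes, 19 were well above background. *SPP1*, the gene of the matrix protein osteopontin, read 3666 units on the WT array, 1604 on the Arp5 KO array, 3643 on the Arp8 KO array and 2613 on the overexpression-labelled array, with a log2 ratio of -1.17 in Arp5 KO over WT. *ICAM5* gave -1.55 in Arp5 KO over WT on one probe, from 46.3 to 15.6 units, and -0.63 on its other probe. The LFA-1 ligand *ICAM1* read 719, 559, 916 and 1511 units and was beyond 2-fold on the overexpression-labelled array, at 1.05. There *ICAM4*, a red cell adhesion molecule, was at 1.07 and the laminin chain gene *LAMB1* at -1.02. The brightest ligand gene was *ICAM2*, at 11000 units on the WT array, with log2 ratios between -0.15 and 0.18. *VCAM1* and *FN1*, which encode the ligands of alpha 4 beta 1 and alpha 5 beta 1, were below background on the 4 arrays.

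Of 7 genes for selectins and their ligands, 3 were well above background. *CD34*, a sialomucin of precursor and endothelial cells, read 40.6 units on the WT array, 27.5 on the Arp5 KO array, 19.4 on the Arp8 KO array and 19.3 on the overexpression-labelled array on probe A_32_P220798, with log2 ratios to WT of -0.54, -1.08 and -1.10. Its other probe gave -0.25 in Arp5 KO cells and -0.60 on the overexpression-labelled array. The brightest was the CD34 relative *PODXL*, at 8590 units for WT and 5508 on the overexpression-labelled array, a log2 ratio of -0.66.

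Of 13 genes for homing chemokine receptors and their ligands, 8 were well above background. *CCR7*, the receptor that guides lymphocytes into lymph nodes, read 105.5 units on the WT array and 51.9 on the Arp5 KO array, a log2 ratio of -1.001 that sits on the 2-fold line, and had ratios of -0.10 in Arp8 KO cells and 0.06 on the overexpression-labelled array. *CXCR3*, the brightest of this list on the Arp5 KO array, had ratios between -0.14 and 0.29. The *CXCR4* ligand gene *CXCL12* read 21.4 to 24.3 units on one probe and was below background on the other.

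The integrin activation and signalling list, with genes such as talin, kindlin and Rap1, had 18 of 21 genes well above background and 0 of 28 probes beyond 2-fold against WT on any of the other 3 arrays. Its brightest gene on the WT array was *RASGRP2*, an activator of Rap1, with log2 ratios of 0.16, -0.03 and 0.01. Of 18 junction and hyaluronan genes, 12 were well above background, and *CD99* and *CLMP* were beyond 2-fold on the overexpression-labelled array. *CD99*, a leukocyte migration protein, gave log2 ratios of 1.002 and 0.90 on its probes there. The junction gene *CLMP* was at least 2.78-fold higher on one dim probe and had a log2 ratio of -0.99 on the other, so its probes ran in opposite directions. *HMMR*, a hyaluronan receptor, was the brightest of this list, with ratios from -0.35 to -0.03.

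**Figure D4:**
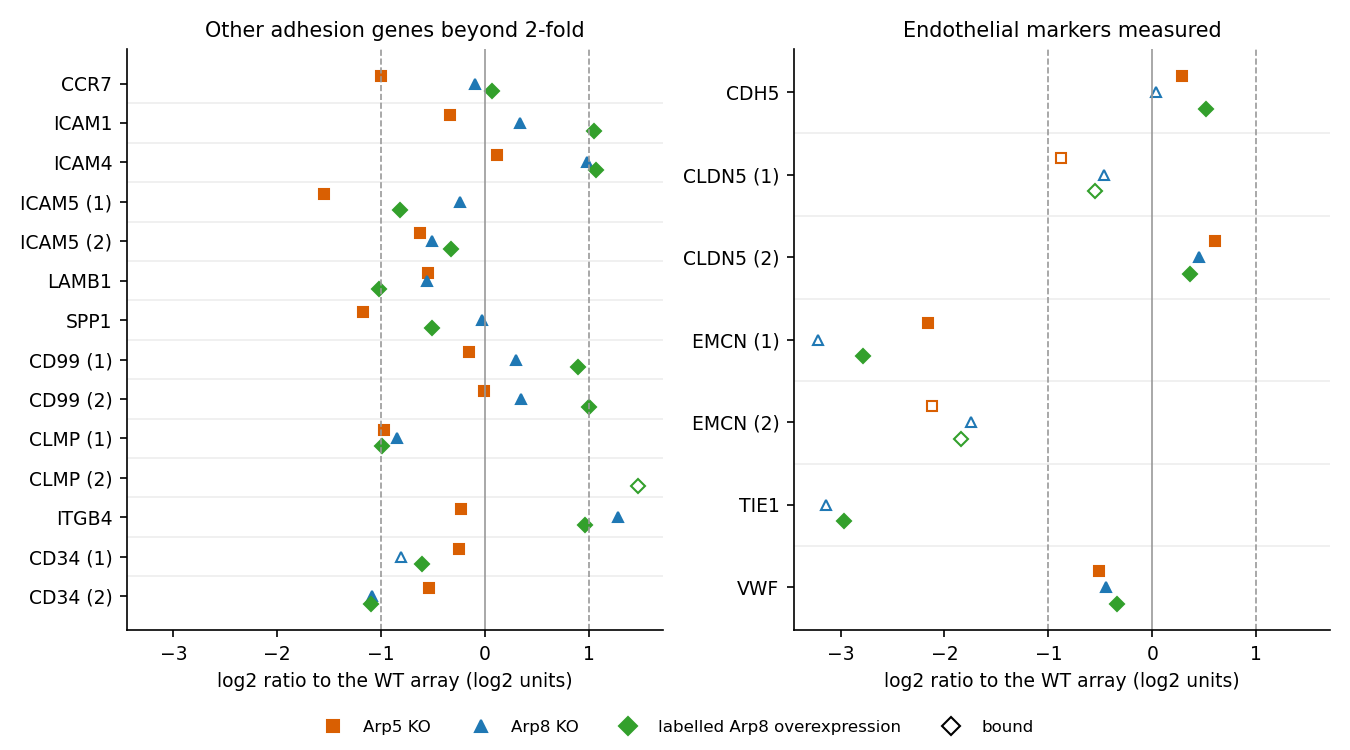
Log2 ratios to the WT array of the other adhesion genes with a probe beyond 2-fold on any of the 3 arrays (left, all their compared probes) and of the compared endothelial marker probes (right), with open symbols for bounds and 2-fold as dashed lines. *EMCN* lies below -1 on both probes for the 3 arrays and *TIE1* for the 2 arrays on which it was compared, and *CLMP* has 1 probe on each side.

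Because *MADCAM1* and *ESAM* are known from endothelial cells, endothelial markers were examined beside them. Of 8 marker genes, 5 were well above background on at least 1 array, and *PECAM1*, *KDR* and *TEK* were below background on the 4. Over the 11 probes usable on each array the summed signal was 202 units for WT, 108 for Arp5 KO, 85.7 for Arp8 KO and 108 for the overexpression-labelled array. The brightest probe of the list on the WT array was A_23_P382065 of *EMCN*, the endothelial sialomucin endomucin, which read 86.5 units on the WT array, 19.0 on the Arp5 KO array, 7.53 on the Arp8 KO array and 12.8 on the overexpression-labelled array. Its log2 ratio to WT was -2.16 in Arp5 KO cells and -2.78 on the overexpression-labelled array, and in Arp8 KO cells, where it was not well above background, it was at least 9.27-fold lower. The other *EMCN* probe read 31.4 units on the WT array, and 7.08, 6.61 and 8.60 units, not well above background, on the others. In units, no other probe of the sum fell as far from WT as the *EMCN* probes did. The kinase gene *TIE1* read 82.3 units on the WT array and 10.7 on the overexpression-labelled array, a ratio of -2.97, was at least 8.82-fold lower in Arp8 KO cells, and its spot in Arp5 KO cells was an outlier and was left out. The brightest *VWF* probe, at 37.7, 26.1, 28.1 and 30.2 units, was above the *EMCN* probes on the last 3 arrays, and no probe of *VWF*, *CLDN5* or *CDH5* was called beyond 2-fold. The part of these markers in the *MADCAM1* and *ESAM* values was not tested, and in bulk RNA fewer cells with a transcript and less of it per cell cannot be told apart.

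Other marker lists were measured in the same way. Of 13 pre-B genes, *CD22*, a B cell inhibitory receptor, was lower in Arp8 KO cells, at a log2 ratio to WT of -1.78, and the other 12 were within 2-fold against WT on the 3 arrays. The summed pre-B signal was 598923 units for WT, 593378 for Arp5 KO, 571936 for Arp8 KO and 586855 for the overexpression-labelled array. Of 8 myeloid genes, 5 were well above background, with summed signals of 245, 227, 373 and 349 units in the same order. *CD14* was the brightest of them at 119 units on the WT array, and *MPO* and *CD163* were below background. The lysozyme gene *LYZ* read 55.4, 46.3, 143 and 139.7 units, with log2 ratios to WT of 1.35 in Arp8 KO cells and 1.31 on the overexpression-labelled array. *CSF1R*, a myeloid growth factor receptor, was at 1.17 on the latter. *CD14* had log2 ratios of 0.08, 0.02 and -0.14 for Arp5 KO, Arp8 KO and the overexpression-labelled array over WT, and *CSF3R*, well above background on the WT array alone, was not called beyond 2-fold. The part of these in the *ITGB2* values was not tested.

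Of 8 T cell genes, 3 were well above background and 0 of 4 compared probes were beyond 2-fold against WT, with summed signals of 239, 238, 212 and 238 units. *CD8A* was the brightest, and *CD3D* and *CD3G* were below background. Of 6 megakaryocyte and platelet genes, 5 were well above background and 0 were called beyond 2-fold, with summed signals of 643, 659, 700 and 723 units, the brightest probe being that of *GP9*. On the overexpression-labelled array *ITGB3* was at least 1.97-fold higher on a probe that was not well above background on the WT array.

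The genes most like *MADCAM1* and *ESAM* over the 4 arrays were found by Euclidean distance between levels centred on their mean, among 19271 probes well above background on each of the 4. Nearest to *MADCAM1* probe A_23_P153616 were *COL5A1*, a fibrillar collagen gene, at a distance of 0.37 and log2 ratios to WT of -2.11, -2.57 and -2.58, and then the homeobox gene *DLX4*, *SRRM3*, *CD200* and the histone gene *H2BC21*, at distances of 0.47 to 0.76. The other *MADCAM1* probe stood at rank 65, with a distance of 1.46, while from that other probe the first stood at rank 18471. Nearest to that probe, A_24_P10731, were *GABRA3*, *XYLB*, *SLC16A3*, *LINC00937* and *TRIM14*, at distances of 0.05 to 0.13. The 5 genes nearest to one *MADCAM1* probe were thus not those nearest to the other, as the distance takes in the size of the differences.

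For *ESAM* the probes stood at rank 2 and rank 1 of each other, at a distance of 0.39. *EGFL7*, the gene of a secreted endothelial factor, was nearest to probe A_23_P47410, at 0.30, with log2 ratios to WT of 0.78 for Arp5 KO, -1.80 for Arp8 KO and -2.04 for the overexpression-labelled array. *ZSCAN9* and the T-box gene *TBX2* were near both probes, *IL12RB2* and *ATP9A* near the first, and *SIGLEC10* and *XKR4* near the second. These likenesses rest on 4 arrays and are a description.

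**Figure D5:**
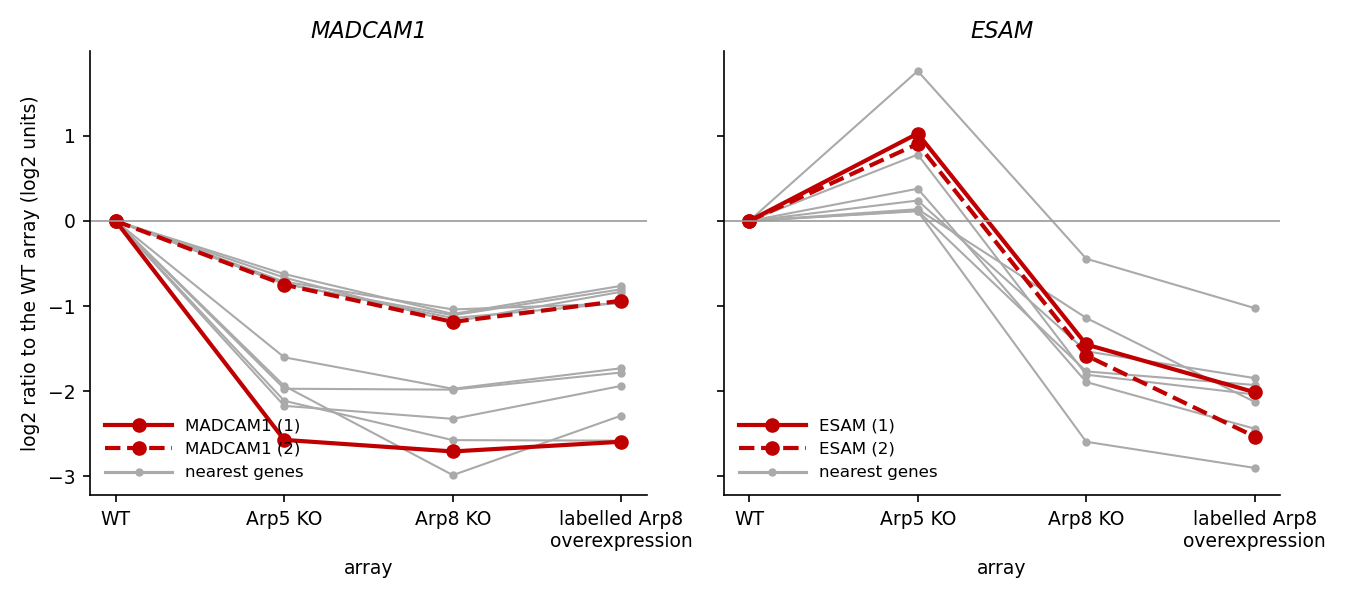
Log2 ratio to the WT array, set to 0, of the *MADCAM1* probes (left) and the *ESAM* probes (right) in red, with the genes nearest to them in grey; lines join values of 1 probe and the arrays have no order. The *MADCAM1* probes lie at different depths, -2.57 and -0.75 in Arp5 KO cells, whereas the *ESAM* probes lie close together in each KO line.

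The neighbours on the chromosome were examined for the same pair of genes, 5 annotated genes on each side. Of the 10 around *MADCAM1*, 10 were measured and 0 were beyond 2-fold in any of the 5 comparisons. The nearest, *CIMAP1D* and *TPGS1*, had log2 ratios to WT between -0.36 and 0.28, and *SPMAP2* came closest to 2-fold, at 0.98 in Arp5 KO cells. Around *ESAM*, 8 of 10 were well above background on some array. Of these, *ROBO3*, an axon guidance receptor gene, was at -1.06 on 1 of its 3 probes on the overexpression-labelled array, and *SIAE*, a sialic acid esterase gene, was at 1.25 for Arp5 KO over Arp8 KO. The genes next to *ESAM*, *VSIG2* and *MSANTD2*, stayed within 2-fold, at -0.75 or above against WT.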

How the data were processed

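The authors deposited the scanner output of Agilent Feature Extraction 10.5.1.1 for each array, in which the processed signal is a linear intensity after background subtraction, with no scaling from array to array, and a table of the same intensity values multiplied by 1 factor per array, set in a way that is not stated. The 4 arrays lay on 1 slide and came from 1 scan. The log2 processed signal was scaled to the 75th percentile over non-control spots, spots marked as outliers were dropped, and the remaining spots of a probe were averaged. A probe with no spot left on an array was not compared there, and a probe was well above background when most of its spots were. With 1 array per genotype no test was run. Accessions named 26222 of 41000 probes (64.0%) through the gene table of GRCh38.p14, which was used for names and neighbours. The members and the lists were chosen with earlier results of these data known.

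The genes named are the members, the genes of each list beyond 2-fold against WT (at most 6) with the brightest gene, the 5 genes nearest to *MADCAM1* and to *ESAM*, the 5 neighbours on each side, and *ACTR5* and *ACTR8*. Other genes, such as *ITGB7*, *ITGAM*, *VCAM1*, *FN1*, *CXCL12* and the markers below background, were named after their values were seen. The lists were other integrin subunits, integrin ligands, selectins and their ligands, homing chemokine receptors and ligands, integrin activation and signalling, junction and hyaluronan genes, and markers of pre-B, endothelial, T, myeloid and megakaryocyte cells. Alternatives were other scalings, the authors' table, normexp correction, outlier spots kept, other filters and fold thresholds, and the dimmer array at its own signal. The files hold no mean signal, so normexp used the median signal and was followed by quantile normalization, with limma 3.58.1 (R 4.3.3). Python 3.11.15, pandas 2.3.3, numpy 2.4.6 and matplotlib 3.10.9 served for the rest. The calling of ratios was tested on simulated data, with changes well beyond 2-fold in probes much brighter than the dimmest signal well above background. It did not cover bounds, changes in dim probes or ratios near 2-fold.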

Additional observations from a re-analysis of the deposited data

Results flagged for a closer look

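Effects of opposite sign in the KO lines were found for *ESAM* and *ITGB2*. On *ESAM* probe A_23_P47410 the log2 ratio to WT was 1.03 in Arp5 KO cells and -1.45 in Arp8 KO cells, and on probe A_24_P13190 it was 0.91 and -1.58. For *ITGB2* the signs were the other way round, at -1.36 in Arp5 KO cells and 0.81 in Arp8 KO cells. Counted after these values were seen, 1397 probes compared in both KO lines were beyond 2-fold against WT in at least 1, and 276 of them (19.8%) had opposite signs. Of the 262 beyond 2-fold in both, 23 (8.78%) had opposite signs. These differences between the KO lines were not tested, since each line has 1 array, and the ratios share the WT array.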

How the results depend on the processing

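No paired analysis was possible because there is only 1 array for a genotype, and no member ratio beyond 2-fold changed sign under the alternatives run. The ratios of list genes, markers, neighbours and genes of similar profile were not rerun under them. With normexp correction of the median signal, an offset of 50 and quantile normalization, the ratios of dim probes lay nearer to 0. Which of the changes other than quantile normalization moved them was not tested. Under this alternative *MADCAM1* probe A_23_P153616 had log2 ratios to WT of -1.08 for Arp5 KO, -1.14 for Arp8 KO and -1.12 for the overexpression-labelled array. Probe A_24_P10731 had -0.42, -0.49 and -0.39 in the same order, and 0.071 for Arp5 KO over Arp8 KO. *ESAM* probe A_23_P47410 had -1.18 in Arp8 KO cells and -1.55 on the overexpression-labelled array against WT, and 2.11 for Arp5 KO over Arp8 KO. *ESAM* probe A_24_P13190 had -1.32, -1.92 and 2.14 for these, and 0.60 for Arp8 KO over the overexpression-labelled array. Under the same correction the other adhesion probes beyond 2-fold against WT numbered 1 for Arp5 KO, 0 for Arp8 KO and 0 for the overexpression-labelled array.

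Counts moved with the fold threshold, by its construction. Shares of all probes were not counted at other thresholds or with the dimmer array at its own signal. Nothing is read from the counts under these alternatives. At 1.5-fold, 5 member probes passed in Arp5 KO over WT, 6 on the overexpression-labelled array over WT and 2 for Arp8 KO over that array, and the other adhesion probes numbered 16, 13 and 18 against WT for Arp5 KO, Arp8 KO and the overexpression-labelled array. At 3-fold, 1 member probe passed in Arp5 KO and 1 in Arp8 KO over WT, and 0, 0 and 0 other adhesion probes did. With the dimmer array at its own signal, 1 member probe passed for Arp8 KO over the overexpression-labelled array, and 5 and 6 other adhesion probes in Arp5 KO and Arp8 KO over WT. An alternative chosen after seeing the data took the overexpression-labelled array as the reference in place of WT. With it, 4 of 14 compared member probes were beyond 2-fold in Arp5 KO cells, 2 higher and 2 lower. Of all 29873 tested probes, 963 were higher and 502 lower. The 71 other counts stayed within 1.5 times the value given, and the 126 other *MADCAM1* and *ESAM* ratios moved by less than their software error. With the dimmer array at its own signal, *CD44* had a log2 ratio of 2.52 for the overexpression-labelled array over WT and -1.32 for Arp8 KO over that array. Signal over background limits *CD44*, *ITGAL* and the lower *MADCAM1* signals. Variation between cultures was not measured.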

Other observations

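The genes nearest to *ITGB2* by the same distance were looked up after the *ITGB2* values were seen. They were *LRG1*, *PTPRM*, *TCEAL4*, *CTSZ* and *TAGAP*, at distances of 0.18 to 0.36 over the 4 arrays. *LRG1*, which encodes a secreted leucine-rich glycoprotein, had log2 ratios to WT of -1.17 for Arp5 KO, 0.91 for Arp8 KO and 0.98 for the overexpression-labelled array. The receptor phosphatase gene *PTPRM* had -1.21, 0.76 and 0.94, and the lysosomal protease gene *CTSZ* had -0.98, 1.23 and 1.09. Genes picked by this distance are like *ITGB2* over the 4 arrays by their selection. *LRG1*, *PTPRM* and *TAGAP* had their highest ratio on the overexpression-labelled array, with *TAGAP* at 0.61 for Arp8 KO and 0.89 there. *ITGB2*, *TCEAL4* and *CTSZ* had theirs on the Arp8 KO array. For *ITGB2* these 2 arrays differed by 0.06, less than the software error of 0.20, so its order of the 2 is not settled.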
